A study of Mus musculus with 2 samples.

Results

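Liver endothelial cells made up 228 of 1175 filtered cells in a single-nucleus chromatin accessibility (ATAC-seq) dataset of mouse liver. They were chosen by the fragments over the bodies, with 2 kb on each side, of 8 endothelial genes: Ptprb, Kdr, Oit3, Cldn5, Gpihbp1, Tek, Tie1 and Flt4. A barcode that the authors' software called a cell, and that had at least 1000 fragments in peaks, was kept when this sum was at least 5 and at least 2 times the larger of the sums over 8 Kupffer cell genes and 8 stellate cell genes. Each of the 2 libraries held 114 such cells, which was 18.7% of 610 cells in library 1 (95% exact binomial interval 15.7 to 22.0) and 20.2% of 565 in library 2 (16.9 to 23.7). The same rule with the marker sets exchanged gave 276 and 134 Kupffer cells and 53 and 22 stellate cells, and it left 167 and 295 cells in no class. All intervals here cover counting error only. They hold no spread between animals, and fragments of the same cell are not independent of each other. No doublet caller was run, and the ratio in the rule limits barcodes that mix classes.

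The series compared 1 male mouse homozygous for the sph allele of Spta (Spta sph/sph) with 1 male wild-type littermate (Spta wt/wt), both 8 to 10 weeks old and untreated. Nonparenchymal liver cells of each were enriched for F4/80, a macrophage surface protein, with antibody-coated magnetic beads before nuclei were isolated, so endothelial cells are cells the enrichment carried along. Each genotype had 1 library. Nothing in the labels says which barcode suffix belongs to which genotype, so the libraries are named only by suffix, as library 1 and library 2, the genotypes stay uncompared, and the libraries cannot be tested against each other.

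Liver sinusoidal endothelial cells line the capillary-like channels between the plates of hepatocytes. They lack a continuous basement membrane, carry open pores, and take up waste macromolecules from blood through scavenger receptors such as the stabilins. They also release signals to their neighbours: Wnt ligands from cells near the central vein maintain the pericentral hepatocyte programme, and Bmp2 and Bmp6 induce hepcidin, the hormone that limits iron export. Erg and other ETS factors, SoxF factors (Sox7, Sox17, Sox18) and Gata4 are known regulators of endothelial identity. In ATAC-seq a transposase cuts open chromatin, and fragments over a gene measure how accessible its DNA is, not how much RNA it makes.

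Promoters of 6 endothelial genes are shown because they were open in endothelial cells and nearly closed in Kupffer cells. They run from 250 bases before to 50 after the listed start site, 5′ to 3′ on the gene's strand, from RefSeq (GRCm38.p6), and capitals mark GGAA and TTCC, the core that ETS factors bind on either strand. Clec14a lies at chr12:58269209-58269508 on the minus strand, Tie1 at chr4:118489800-118490099 on the minus strand, Myct1 at chr10:5593478-5593777 on the plus strand, Ehd3 at chr17:73804591-73804890 on the plus strand, Erg at chr16:95459299-95459598 on the minus strand and Cldn5 at chr16:18776597-18776896 on the plus strand.
Clec14a: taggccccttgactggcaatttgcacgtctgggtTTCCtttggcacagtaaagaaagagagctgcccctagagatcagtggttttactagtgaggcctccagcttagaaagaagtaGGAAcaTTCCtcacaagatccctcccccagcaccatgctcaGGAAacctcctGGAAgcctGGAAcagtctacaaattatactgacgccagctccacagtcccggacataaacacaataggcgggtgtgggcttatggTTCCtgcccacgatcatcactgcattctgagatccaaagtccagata
Tie1: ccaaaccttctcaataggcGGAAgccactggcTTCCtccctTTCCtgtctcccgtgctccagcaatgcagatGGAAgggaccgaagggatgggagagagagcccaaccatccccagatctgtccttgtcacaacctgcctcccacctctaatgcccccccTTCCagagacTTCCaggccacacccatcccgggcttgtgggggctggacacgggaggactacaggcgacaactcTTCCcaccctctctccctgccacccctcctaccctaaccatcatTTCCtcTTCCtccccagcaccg
Myct1: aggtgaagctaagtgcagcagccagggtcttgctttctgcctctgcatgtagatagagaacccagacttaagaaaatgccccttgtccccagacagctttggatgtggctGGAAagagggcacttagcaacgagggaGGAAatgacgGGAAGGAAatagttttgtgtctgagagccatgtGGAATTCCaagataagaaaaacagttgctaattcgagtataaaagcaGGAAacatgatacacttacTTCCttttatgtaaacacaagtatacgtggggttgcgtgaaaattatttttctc
Ehd3: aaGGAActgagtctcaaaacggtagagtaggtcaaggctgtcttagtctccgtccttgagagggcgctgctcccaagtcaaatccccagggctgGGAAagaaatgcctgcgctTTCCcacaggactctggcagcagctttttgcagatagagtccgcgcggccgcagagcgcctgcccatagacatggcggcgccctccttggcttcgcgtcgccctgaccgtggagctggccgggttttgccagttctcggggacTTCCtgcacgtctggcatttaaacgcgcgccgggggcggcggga
Erg: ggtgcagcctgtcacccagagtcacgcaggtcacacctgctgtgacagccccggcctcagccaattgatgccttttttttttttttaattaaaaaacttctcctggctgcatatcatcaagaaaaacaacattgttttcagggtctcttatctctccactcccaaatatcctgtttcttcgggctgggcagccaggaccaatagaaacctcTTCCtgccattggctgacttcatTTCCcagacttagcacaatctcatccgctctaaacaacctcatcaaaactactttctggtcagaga
Cldn5: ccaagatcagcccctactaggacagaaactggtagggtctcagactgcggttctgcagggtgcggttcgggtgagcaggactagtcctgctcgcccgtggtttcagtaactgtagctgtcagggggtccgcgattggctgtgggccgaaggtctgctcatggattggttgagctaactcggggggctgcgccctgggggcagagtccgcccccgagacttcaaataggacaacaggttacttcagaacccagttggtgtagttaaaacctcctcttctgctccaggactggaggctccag
The cores numbered 7 in Clec14a, 9 in Tie1, 8 in Myct1, 4 in Ehd3, 2 in Erg and 0 in Cldn5, and Tie1 and Cldn5 belong to the rule. Over the Clec14a promoter, 53 endothelial fragments of library 1 and 24 of library 2 stood beside 1 and 0 Kupffer fragments. Tie1 gave 53 and 46 beside 2 and 1, and Ehd3 gave 74 and 40 beside 8 and 0. The promoters of Myct1 (29 and 21 beside 0 and 1), Erg (36 and 28 beside 0 and 2) and Cldn5 (38 and 28 beside 2 and 2) held fewer endothelial fragments in library 1. All 6 were picked for being open in endothelial cells, so whether openness goes with the number of cores was not tested.

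Library 1 held 11401694 unique fragments and library 2 held 21656110, with no called barcode in common. Endothelial cells of library 1 had 2150 to 56521 fragments (median 12012), and those of library 2 had 3184 to 194279 (median 15901). The median share of fragments in peaks was 72.9% and 57.5% (Kupffer cells 74.3% and 59.5%), and 7 and 39 endothelial cells were under 50%. In library 2, 12.2% of endothelial fragments lay in pile-ups, 20 kb bins where a single cell had at least 10 fragments, and 10 or more times what was expected from the other cells of its class, against 1.15% in library 1. Pile-ups were left out of the gene values of called cells. They were kept in the marker sums of the rule and in the shares of cells with a fragment of a rule marker. The 1593848 and 2270424 fragments that stayed are the base of counts-per-million (CPM) values. With pile-ups kept, the deepest cell supplied 3.51% and 7.51% of the fragments of its class. Gene windows carry no strand and can overlap a neighbouring gene.

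The rule's own markers are described without a test, because they chose the cells. The endothelial sum ran from 5 to 70 per cell in library 1 (median 17) and from 5 to 116 in library 2 (median 11). These sums kept pile-ups, and a single cell of library 2 held 114 Tek fragments. With pile-ups left out of the sums, the rule found 114 cells in library 1 and 112 in library 2. A cell of median depth would reach 1.82 and 2.40 if its fragments were spread evenly over the genome, and the median cell stood 9.92 and 5.06 times above that spread. In library 1, 1 cell was under 3 times the even spread. In library 2, 24 were, and 10 of these were under 2 times. Members of library 2 were thus less far above an even spread than those of library 1. Both other sums were 0 in 52 and 43 cells.

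**Figure D1:**
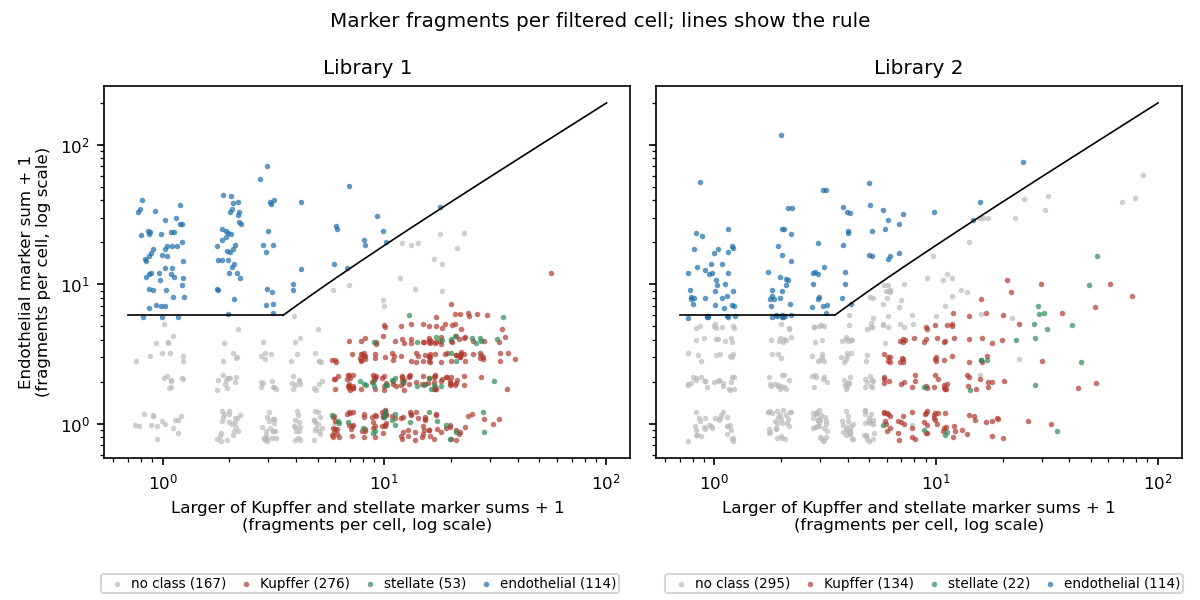
Each point is a filtered cell; the vertical axis gives its fragments over the 8 endothelial markers and the horizontal axis the larger of its Kupffer and stellate sums, both plus 1 on log scales, with a small random offset. The 114 endothelial cells of each library (blue) lie above the lines that mark the rule, and more unclassed cells (grey) crowd the lines in library 2.

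Ptprb, a receptor phosphatase that restrains Tie2, had a fragment in 97.4% of endothelial cells of library 1 and 75.4% of library 2, against 23.2% and 25.4% of Kupffer cells. Kdr, the main VEGF receptor, was seen in 88.6% and 82.5%, and Flt4, the VEGF-C receptor, in 80.7% and 73.7%. Oit3, an extracellular protein of sinusoidal cells, was seen in 73.7% and 58.8% of endothelial cells and in 5.43% and 8.96% of Kupffer cells. Coverage was thinnest at Gpihbp1 (41.2% and 37.7%), the anchor of lipoprotein lipase, and at the tight junction gene Cldn5 (43.0% and 36.0%). No single marker therefore defined the class.

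Near the threshold, 5 and 17 cells (library 1, library 2) were kept with a sum of exactly 5, while 2 and 16 cells with a sum of 4 and 5 and 14 with a sum of 3 met the ratio but stayed out. By the ratio, 9 and 7 kept cells lay between 2 and 3 times the larger other sum, and 8 and 28 cells with a sum of at least 5 fell between 1 and 2 times. As a description of these edges, 14 pan-endothelial genes that the rule did not use were summed. In library 1 they gave 1101 CPM (95% Poisson interval 939 to 1283) in the 24 members with a sum of 5 to 9, 1437 CPM in the 44 with 10 to 19 and 1434 CPM in the 46 with 20 or more. The 7 cells with a sum of 3 or 4 gave 385 CPM (244 to 577). In library 2 the same steps gave 791 CPM (723 to 863) in 51 members, 881 CPM in 34 and 871 CPM in 29, with 531 CPM (446 to 628) in the 30 cells just outside. The edge was thus sharper in library 1. Cells with a sum of at least 5 that failed the ratio gave 446 and 359 CPM.

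The label was checked on genes the rule did not use. Values below are log2 ratios of endothelial over Kupffer CPM, relative to the median gene, and "higher" or "lower" in a count means at least 2-fold from that median, among genes with at least 50 fragments in both classes together. Over all genes 9.68% were called higher and 11.7% lower in library 1 (14989 tested), and 6.55% higher and 5.08% lower in library 2 (14264 tested). Of 14 pan-endothelial genes, 11 of the 13 that passed the minimum were higher in library 1 (median 3.12) and 9 of 13 in library 2 (median 1.98), and none was lower. A gene that is high only in endothelial cells passes the minimum through that class alone, so these counts describe the list and do not stand as a test.

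Clec14a, a C-type lectin of endothelium, gave 76.5 and 27.7 CPM in endothelial cells and 1.32 and 1.04 CPM in Kupffer cells. The ratios were 54.2-fold (log2 5.76, 95% interval 4.77 to 7.20) and 23.0-fold (4.52, 3.12 to 7.05), the Kupffer values resting on 7 and 3 fragments. Eng, a co-receptor for BMP9, gave 196 and 122 CPM against 16.1 and 14.2 CPM (log2 3.60 and 3.08). S1pr1, the sphingosine-1-phosphate receptor that stabilises junctions, gave 105 and 80.6 CPM against 12.7 and 10.0 CPM (3.04 and 2.98). For these 3 genes the classes differed by more than counting error in both libraries, which describes them and does not stand as a test. Robo4 (3.70 and 2.38), Esam (3.27 and 2.86), Egfl7 (3.12 and 2.18), Myct1 (4.29 and 1.98) and Adgrl4 (3.49 and 1.14) were also higher in both.

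Pecam1 and Cdh5, both widely used as endothelial markers, had the lowest ratios of the list in library 1. Pecam1 (CD31) gave 236 and 138 CPM in endothelial cells and 141 and 102 CPM in Kupffer cells (log2 0.74 and 0.43). Cdh5 (VE-cadherin) gave 146 and 137 CPM against 93.1 and 43.6 CPM (0.65 and 1.64). Of 4 open 1 kb tiles around Pecam1 none was 4-fold over Kupffer cells, whereas 3 of 4 around Cdh5 were, among them a tile inside the gene with 35 and 66 endothelial fragments against 0 and 5. In library 2, Cdh5 passed the fold. Emcn (2.31 and -0.06), Mmrn2 (2.08 and 0.39) and Nos3 (1.92 and 0.34), the endothelial nitric oxide synthase, passed the fold in library 1 only, and the difference between libraries was not tested.

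**Figure D2:**
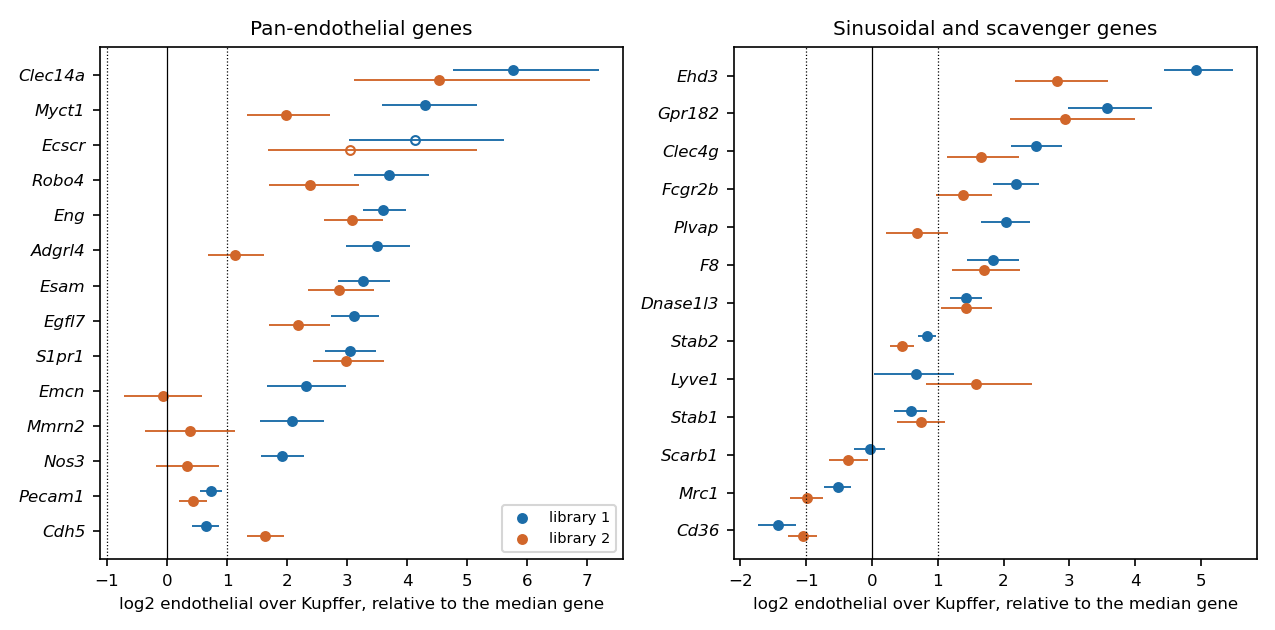
Points give the log2 ratio of endothelial over Kupffer CPM for each gene, relative to the median gene, and lines its 95% exact binomial interval; open points are genes under 50 fragments. Most pan-endothelial genes lie above 1 in both libraries, with Clec14a highest at 5.76 and 4.52; the lowest are Cdh5 at 0.65 in library 1 and Emcn at -0.06 in library 2.

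Per cell, the pan-endothelial and sinusoidal lists together hold 27 genes. The median endothelial cell had 38.5 fragments over them in library 1 and 26 in library 2, which was 6.49 and 4.18 times an even spread. Kupffer cells had 24 and 19, which was 2.63 and 2.25 times. In endothelial cells, 5 and 19 stayed under 2 times the even spread. Markers of Kupffer cells that the rule did not use went the other way: 10 of 10 were lower in library 1 (median -2.16) and 8 of 10 in library 2 (median -1.34). The complement genes C1qc (-4.10 and -3.13) and C1qb (-4.09 and -2.06) were the lowest. Another C1q gene, C1qa, belongs to the Kupffer sum of the rule, so these values are no separate support. Counts of this list describe it and do not stand as a test. Csf1r, the macrophage growth factor receptor, was at -2.93 in library 1 and -0.97 in library 2.

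Markers of other cell types were sparse. Of 10 further stellate markers, Lrat, Hand2, Col1a2, Col3a1 and Tcf21 stayed under the minimum in both libraries, Cygb alone was called higher (1.76, library 1), and Pdgfrb was lower in library 1 (-1.96) and Acta2 in library 2 (-1.14). Of 10 hepatocyte markers, 3 were tested in library 1 and 2 in library 2, and none was called. Alb had 16 and 10 endothelial fragments. Summed, the hepatocyte list gave 136 and 95.6 CPM in endothelial cells against 74.1 and 79.0 CPM in Kupffer cells. Of 7 cholangiocyte genes, 2 were tested in each library, of which 1 was higher (1.33 in library 1 and 1.56 in library 2). Of 8 erythroid genes, 2 were tested in each library, of which 1 was higher in library 2 (1.04). None of either list was lower. Among 8 T and NK cell genes, Lck was called higher in both libraries (2.16 and 1.72), while Cd3e had 1 and 10 endothelial fragments. Zbtb46, known from dendritic cells and also from endothelium, was at 1.49 and 0.49.

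Genes of sinusoidal scavenging and filtration were split. Of 13, 7 were higher and 1 lower in each library (median 1.43 and 1.39). Ehd3, an endocytic recycling gene, gave 204 and 52.4 CPM against 6.62 and 7.27 CPM in Kupffer cells (30.4-fold and 7.04-fold). Gpr182, an atypical chemokine receptor (3.58 and 2.94), Clec4g (2.49 and 1.66), the Fc receptor gene Fcgr2b (2.19 and 1.39), the coagulation factor gene F8 (1.84 and 1.71) and Dnase1l3, which degrades DNA in plasma (1.43 and 1.43), were higher in both. Stab2, the hyaluronan scavenger receptor, gave 395 and 227 CPM in endothelial cells and 221 and 164 CPM in Kupffer cells (0.84 and 0.46), under the fold. Stab1 (0.59 and 0.74) was also under it, and Mrc1, the mannose receptor (-0.52 and -0.99), and Cd36, a fatty acid receptor (-1.43 and -1.05), were nearer to the Kupffer side. The library 2 median turned to -0.11 when cells were thinned to 5000 fragments.

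Zonation genes of both ends of the lobule were open. Of 8 pericentral genes, 6 were higher in library 1 (median 1.81) and 3 in library 2 (median 0.84). Wnt2 gave 129 and 32.6 CPM against 3.40 and 10.4 CPM (log2 5.21, 4.55 to 6.03, and 1.63, 1.01 to 2.31). Kit, a receptor tyrosine kinase, was at 3.83 and 2.86, and Fabp4, a fatty acid carrier, at 3.99 and 3.31. Wnt9b (2.01 and 0.30) passed in library 1, and Rspo3, an amplifier of Wnt signals, was under the fold in both (0.95 and -0.20). Of 6 periportal genes, 4 were higher and Msr1 lower in library 1, and 2 were higher in library 2, namely Dll4 (2.37 and 3.01) and Ntn4 (2.14 and 1.40). Single cells were not placed in a zone.

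Large-vessel and lymphatic genes gave few values. Of 10 large-vessel genes, 5 passed the minimum in library 1 and 3 in library 2. Sox17, an arterial transcription factor, was at 5.11 and 1.68 and Cd34 at 1.54 and 1.74, while Vwf, the adhesive protein of larger vessels, did not differ by the fold (-0.18 and -0.03). The median of this list (1.54 and 1.68) fell below 0 in library 2 when cells with at least 1 fragment were counted (-0.14), and in both libraries when cells were thinned to 5000 fragments (-0.14 and -0.25). Among 6 lymphatic genes, Prox1, the lymphatic master regulator, was at 1.60 in library 1 and -0.62 in library 2. Neither list was uniformly open in these cells.

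Transcription factor genes were among the most distinct. Of 19, 12 were higher in library 1 (median 2.01) and 10 of 18 in library 2 (median 1.35), and none was lower. Nr2f2 (COUP-TFII), which specifies veins, gave 92.9 and 39.6 CPM against 2.27 and 11.8 CPM (5.30 and 1.73). Erg gave 331 and 191 CPM against 29.1 and 48.8 CPM (3.50 and 1.96). Gata4, which keeps sinusoidal cells from turning into continuous capillaries, gave 174 and 92.5 CPM against 22.3 and 18.7 CPM (2.96 and 2.29). All 3 were higher in both libraries. Gata2 (2.57 and 2.69), Sox7 (2.76 and 2.33), Meis2 (3.56 and 1.51) and Tal1 (2.57 and 1.49) were too, whereas Fli1 (-0.34 and 0.02) and the flow-responsive Klf2 (-0.30 and -0.46) stood near the median gene.

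Signalling lists held single strong members. In the VEGF and angiopoietin list, 4 of 10 genes were higher in library 1 (median 0.96) and 4 of 9 in library 2 (median 0.29). The receptor gene Flt1 led with 330 and 154 CPM against 49.0 and 42.6 CPM (2.75 and 1.85), and the receptor gene Nrp2 was at 1.86 and 1.21. The ligand gene Vegfc was at 2.25 and 1.08, and Vegfa at 2.71 and -0.10. In the BMP and hepcidin list, 4 were higher and 2 lower of 12 in library 1 (median 0.53), and 2 were higher in library 2 (median 0.57). Bmp6 gave 211 and 137 CPM against 20.4 and 30.8 CPM (3.36 and 2.15), and Bmp2 gave 99.1 and 37.0 CPM against 33.5 and 18.7 CPM (1.57 and 0.97). The 4 receptor genes of the list were split: Acvrl1 (ALK1) was at -1.09 and -0.90 and Bmpr1a (ALK3) at -1.38 and -0.04, while Bmpr2 was at 1.02 and 0.90 and Acvr1 (ALK2) at 0.91 and 1.26. The SMAD targets Id1 (0.25 and -0.14) and Id3 (0.20 and -0.34) stayed near the median gene.

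In the Notch list, 4 of 12 were higher and Notch2 lower in library 1 (median 0.48), and 2 were higher in library 2 (median 0.31). Dll4, the ligand of arteries and sprouting tips, led (2.37 and 3.01), Notch4 was at 0.95 and 1.07, and the target gene Hes1 at 0.22 and 0.14. Of 9 Wnt and Hgf genes, 4 were higher in library 1 (median 0.95) and 3 in library 2 (median 0.30): Axin2, a Wnt target (2.15 and 1.85), the receptor gene Fzd4 (1.91 and 1.06) and Wnt2 in both. Hgf, the hepatocyte growth factor gene, was not (-0.01 and -0.50). Over the alternatives the library 2 median ran from -0.50 to 0.53.

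Among 11 adhesion and junction genes, 6 were higher and 1 lower in library 1 (median 1.14), and 3 were higher and 1 lower in library 2 (median 0.48). Jam2 was the highest (3.11 and 2.36), and Vcam1, an adhesion molecule that Kupffer cells also carry, the lowest (-2.18 and -2.40). Of 12 genes of coagulation and vessel tone, 5 were higher and 1 lower in library 1 (median 0.32), and 4 and 1 in library 2 (median 0.56, which thinning to 5000 fragments turned to -0.31). Plat, the tissue plasminogen activator (1.02 and 2.02), and Ednrb, the endothelin B receptor (1.41 and 1.37), were higher in both. Procr, the protein C receptor, was called lower in both (-1.15 and -1.0), but gene bodies without flanks gave 0.075 and 0.40, so its direction rests on the flanks.

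Heme, antigen and inflammation genes lay on the Kupffer side. Of 15 heme and iron genes, none was higher, and 6 were lower in library 1 (median -0.41) and 3 in library 2 (median -0.71). Lrp1, a receptor for heme bound to hemopexin, gave 71.5 and 104 CPM against 515 and 375 CPM (-2.84 and -1.85). Slc40a1 (ferroportin) was at -1.70 and -1.48 and Hmox1 (heme oxygenase 1) at -1.06 and -1.54. Of 13 antigen presentation genes, 6 were lower in library 1 (median -0.46) and 2 of 12 in library 2 (median -0.40), led by Cd74, the class II invariant chain (-2.92 and -2.03), while the class I genes H2-K1 (0.14 and -0.30) and B2m (-0.22 and -0.29) were near the median gene. Of the inflammatory genes, 4 of 11 were lower in library 1 (median -0.68) and 3 of 12 in library 2 (median -0.36), with Il1b at -3.12 and -1.63 and Tlr4, the endotoxin receptor, at -1.53 and -1.01.

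**Figure D3:**
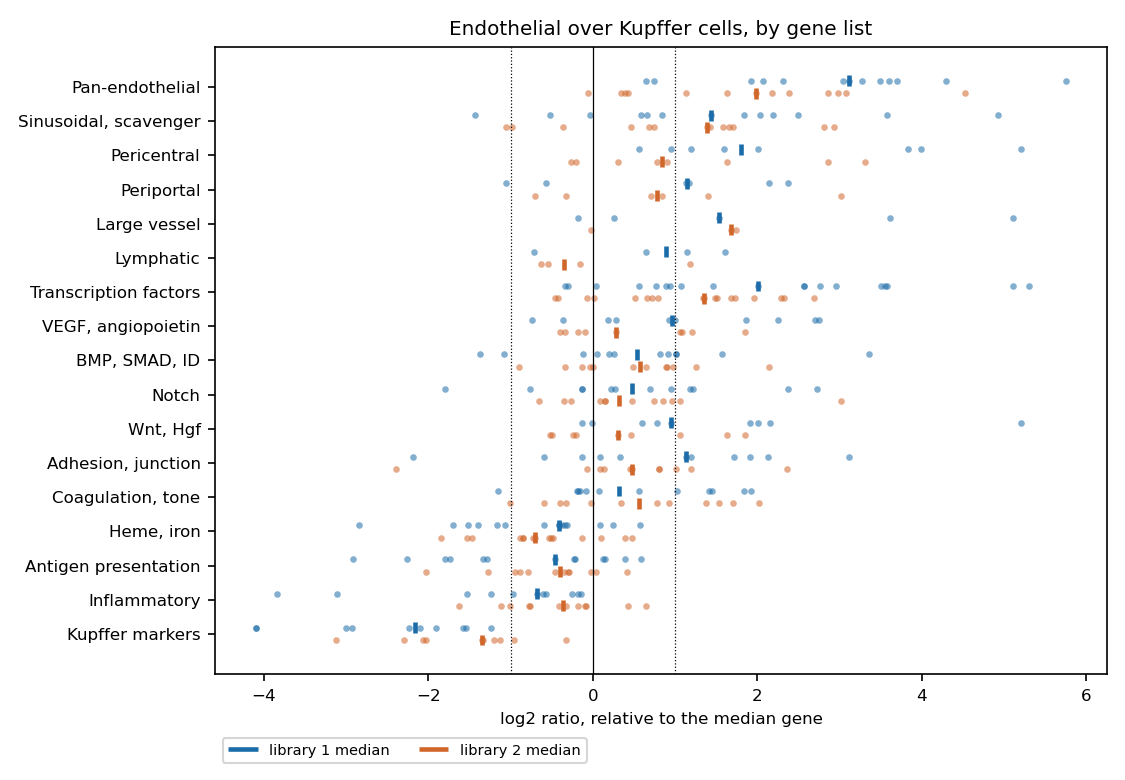
Each point is a gene of the list named at the left, placed by its log2 ratio of endothelial over Kupffer CPM relative to the median gene, and bars mark the list medians of each library. The pan-endothelial list sits highest among the lists the rule did not use (medians 3.12 and 1.98), and the further Kupffer markers lowest (-2.16 and -1.34).

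Over the whole genome, 4.51% of 14021 genes were higher in both libraries (633) and 4.02% lower in both (563). Of 1345 genes higher in library 1 and tested in library 2, 633 were also higher there and 1235 were above 0; of 1506 lower genes, 563 were also lower and 1331 below 0. Only 12 genes passed the fold in opposite directions. The 10 highest, by the smaller of both ratios, were Flt4, Cavin2, Adamts1, Oit3, Ephb4, Trib2, Pla2g2c, Fam124a, Aqp1 and Pdk4, of which Flt4 and Oit3 belong to the rule. Cavin2, a coat protein of caveolae, gave 108 and 44.0 CPM against 2.27 and 2.77 CPM (5.52 and 3.91). Adamts1, a secreted protease, gave 115 and 94.7 CPM against 5.67 and 6.23 CPM (4.32 and 3.88). Ephb4, the venous receptor for ephrin-B2, gave 168 and 111 CPM against 5.86 and 8.66 CPM (4.82 and 3.64), and the water channel gene Aqp1 gave 128 and 52.4 CPM against 2.27 and 5.89 CPM (5.76 and 3.11). These genes were picked by this same ratio, so their distance from Kupffer cells is no support for the class. The 10 lowest were C1qc, Clec4f, Cd5l, Vsig4, Lilra5, Cmklr1, Cybb, Rgs1, Cd163 and Evi2a, of which Clec4f, Cd5l, Vsig4 and Cd163 belong to the rule. Cmklr1, the chemerin receptor, was at -3.52 and -2.64.

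Against the stellate cells, which came from fewer nuclei, 2.58% of 10740 genes were higher in both libraries (277) and 3.72% lower in both (399). The median gene stood at 0.10 and 0.12 before centring. The pan-endothelial list had medians of 2.01 and 2.12 relative to that gene, and the sinusoidal list 1.14 and 0.86. The transcription factor list had medians of 1.45 and 0.75, but Gata4 (-0.17 and -0.47) and Nr2f2 (-0.23 and -0.45) were below 0. Ehd3 had 206 and 74.4 CPM in stellate cells and 204 and 52.4 CPM in endothelial cells. Ehd3, Gata4 and Nr2f2 therefore set endothelial cells apart from Kupffer cells and not from stellate cells. The signalling lists also had medians under the fold against stellate cells in both libraries. They were 0.69 and 0.13 for VEGF and angiopoietin, 0.42 and -0.28 for BMP, -0.07 and -0.01 for Notch, and 0.38 and -0.06 for Wnt and Hgf.

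To see where this chromatin lay, the genome was cut into 1 kb tiles, and 11802 tiles with at least 20 endothelial fragments in each library were called open. Of these, 14.9% (1758) were at least 4-fold over Kupffer cells in both libraries. Gene ends, within 1 kb of either end since the gene table gives no strand, held 60.2% of open tiles but 11.7% of the 4-fold tiles, and 2.90% of tiles there were 4-fold. Tiles inside genes made up 24.2% of open and 47.7% of 4-fold tiles, and tiles between genes 15.6% and 40.6%. The share of 4-fold tiles was 29.4% inside genes and 38.7% between them. Chromatin that set endothelial cells apart from Kupffer cells thus lay mostly away from the ends of the gene models, though tiles inside a gene can hold an internal start site.

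Single loci varied. Wnt2 has 1 open tile, inside the gene model 1272 bp from its end and at -1055 bp from the listed start site (chr6:18031001-18032000, GRCm38), with 80 and 21 endothelial fragments against 0 and 3 Kupffer fragments. Eng had 5 of 6 open tiles 4-fold, the strongest inside the gene (chr2:32661001-32662000) with 70 and 82 against 4 and 1. All 5 open tiles of Erg were 4-fold, 1 of which holds the listed start site. In Stab2, whose whole window was under the fold, an intragenic tile (chr10:86992001-86993000) had 53 and 50 against 5 and 2. A tile can therefore be specific where the sum over its gene is not. S1pr1 differed, with its strongest tile 933 bp outside the gene (chr3:115709001-115710000, 79 and 91 against 1 and 2).

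Around listed start sites, insertions were counted per gene and 100 bp and scaled to the fragments of the class, as for CPM. Over 7 pan-endothelial genes with a listed start, endothelial cells averaged 8.83 and 4.36 within 200 bp of the start and 1.33 and 0.544 beyond 1000 bp, while Kupffer cells averaged 0.290 and 0.161 near the start. Over 8 Kupffer markers that the rule did not use, endothelial cells averaged 1.00 and 2.2 near the start and Kupffer cells 10.2 and 8.88. Within the endothelial cells, library 2 was thus the higher at Kupffer start sites and the lower at endothelial start sites.

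**Figure D4:**
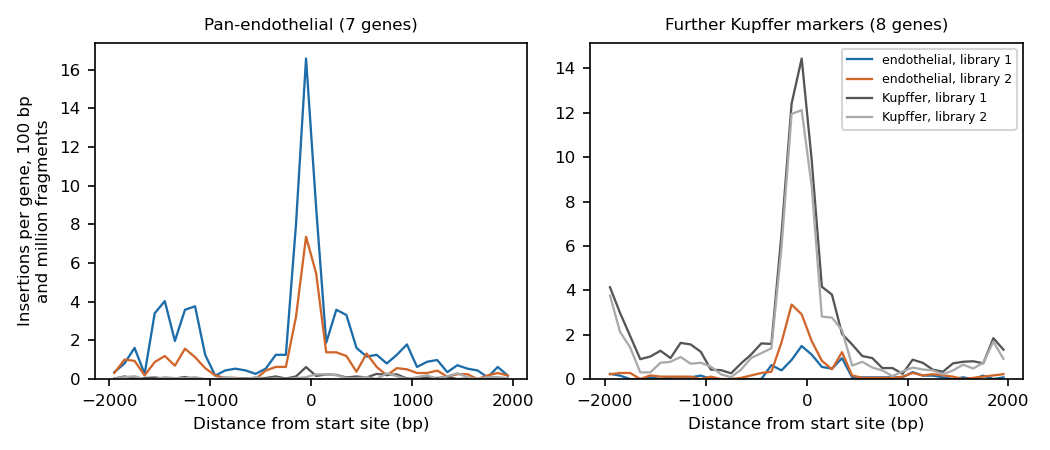
Curves give Tn5 insertions per gene and 100 bp, on the CPM scale, around the listed start sites of 2 gene sets that the rule did not use, for endothelial and Kupffer cells of each library. Endothelial cells peak at endothelial start sites (8.83 and 4.36 over the pan-endothelial genes) and are lower at Kupffer start sites (1.00 and 2.2), where Kupffer cells peak (10.2 and 8.88).

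Of 84 genes of the lists, 52 had a listed promoter in RefSeq, and 40 of these had at least 20 fragments. Short motifs were searched on both strands of the 300 base promoters, among the 200 most endothelial and the 200 most Kupffer of 9202 promoters with at least 20 fragments. The ETS motif CCGGAAGT was in 0 of the 200 endothelial promoters, in 3% of the Kupffer promoters and in 9.60% of all open promoters. PU.1, the myeloid ETS factor, with GAGGAAGT, was in 2% of endothelial and 14% of Kupffer promoters, beside 3.43% of open and 3.29% of all 17469 listed promoters. The motif AGATAA of GATA factors was in 11.5% and 10%, beside 5.48% of open promoters, SOX (ACAATG) in 8% and 10% beside 6.41%, and KLF (CCACACCC) in 5% and 4% beside 3.87%. AP-1 (TGAGTCA) was in 6.5% and 7% beside 3.04%, and FOX (TGTTTAC) in 3.5% and 2.5% beside 2.22%. The bare GGAA core, which the ETS and PU.1 motifs contain, averaged 3.51 per endothelial promoter (92.5% with at least 1) and 3.50 over all listed promoters (95.7%). The mean GC content was 61.9% in the endothelial and 51.7% in the Kupffer promoters. The motif that differed most between these promoter sets was that of PU.1, on the Kupffer side. A match describes letters in a window and nothing about a bound factor.

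Library 2 was then set against library 1 within the endothelial cells, with no replicate and no test. The median gene stood at -0.12 before centring (-0.14 in Kupffer cells), and ratios are relative to it. Of 13265 genes, 5.55% (736) were at least 2-fold higher and 1.99% (264) lower in library 2. The excess of higher genes changed with the setting: 250 were higher and 260 lower in cells with at least 50% in peaks, 348 and 243 without members under 3 times the even spread, and 1232 and 346 with pile-ups kept. In Kupffer cells the shares were 5.24% higher and 1.97% lower of 15302. Of the genes tested in both classes, 234 were higher in both, which was 32.4% of 722 in endothelial and 36.4% of 642 in Kupffer cells, and 15 were lower in both, 6.49% of 231 and 9.62% of 156. The difference between these shares was not tested.

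Endothelial identity genes lay mostly below the median gene in library 2, although few passed the fold. In the pan-endothelial list 13 of 14 genes lay below 0 and 3 passed the fold, Nos3 (-1.52), Mmrn2 (-1.46) and Clec14a (-1.33). The list's median was -0.75, and 0.13 in Kupffer cells. Kupffer cells also stood lower in library 2 at their own genes: 7 of the 10 further Kupffer markers lay below 0 there (median -0.36). A lower median at identity genes was thus not particular to endothelial cells. The medians were -0.73 for the sinusoidal list (11 of 13 below 0) and -0.54 for transcription factors (17 of 19 below 0). Ehd3 gave 204 CPM in library 1 and 52.4 CPM in library 2 (-1.83, 95% interval -2.15 to -1.53), with a fragment in 85.1% and 44.7% of cells. Wnt2 gave 129 and 32.6 CPM (-1.86, -2.27 to -1.47) and Flt1 gave 330 and 154 CPM (-0.97). Genes near 0 were Cdh5 (146 and 137 CPM, 0.03), Kit (112 and 96.9 CPM, -0.08) and Gata2 (60.9 and 56.8 CPM, 0.02), so the shift was not the same for every member. The rule's own markers, all 8 below 0 with a median of -0.66, chose the cells and are no support.

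An alternative chosen after seeing the data left out the members under 3 times the even spread, 1 cell in library 1 and 24 in library 2. The medians were then -0.41 for the pan-endothelial, -0.51 for the sinusoidal and -0.39 for the transcription factor list, and the further Kupffer markers went from 0.43 to -0.06. This filter uses the marker sum that chose the cells, so these moves are partly set by it and are no support. Over all alternatives the pan-endothelial median ran from -0.84 to -0.34. The share of fragments in peaks, the pile-ups and the number of weak members also differed between the libraries. Their part in the lower medians was not tested.

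The zonation and pathway lists had medians nearer to 0. They were -0.35 for pericentral genes, -0.12 for periportal, -0.28 for VEGF and angiopoietin, -0.42 for BMP, -0.03 for Notch, -0.34 for Wnt and Hgf, -0.33 for adhesion, -0.31 for coagulation, -0.18 for antigen presentation and 0.15 for inflammatory genes. Of the lists of other cell types, most members were under the minimum; the B cell list had a median of 0.69 over 4 tested genes. Within them, Fabp4 (28.2 and 49.8 CPM, 0.93) and Notch2 (64.0 and 133 CPM, 1.18) stood higher in library 2, and Bmp2 (99.1 and 37.0 CPM, -1.29) and Dll1 (57.7 and 18.1 CPM, -1.54) lower. Among the 15 heme and iron genes none passed the fold, and 12 lay above 0 (median 0.33, and 0.24 in Kupffer cells). Hmox1 gave 29.5 and 49.3 CPM in endothelial cells (0.86) and 62.2 and 143 CPM in Kupffer cells (1.34).

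**Figure D5:**
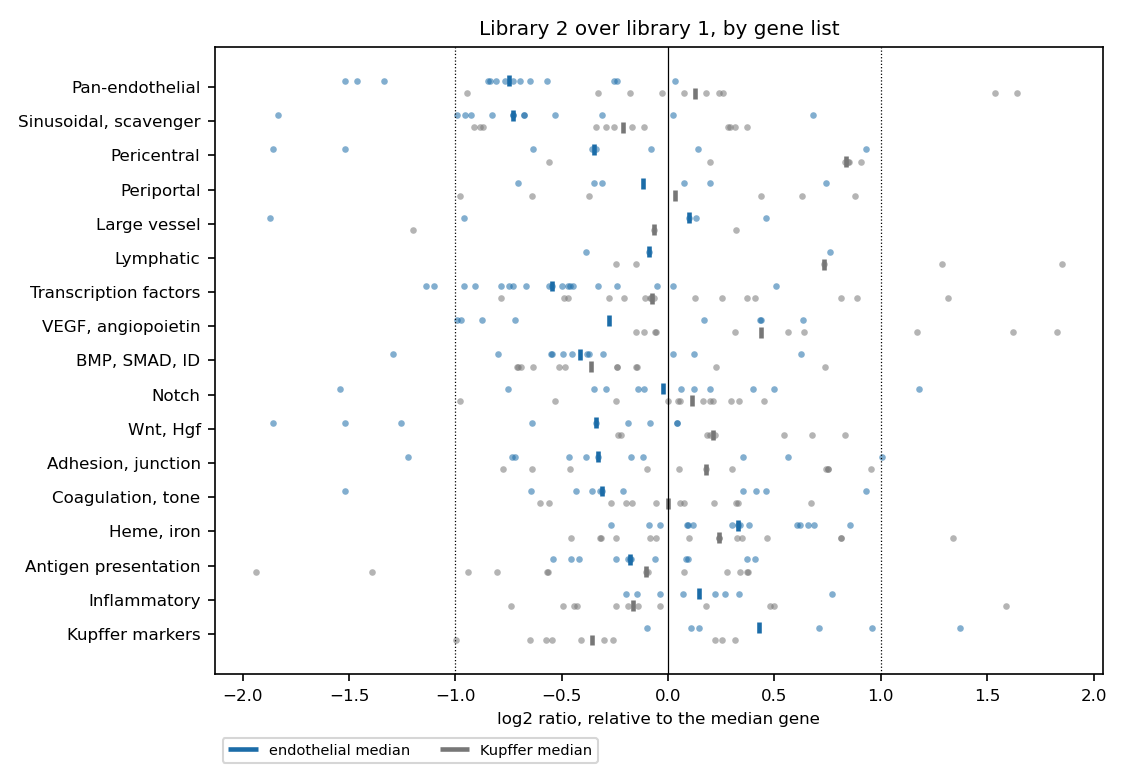
Each point is a gene placed by its log2 ratio of library 2 over library 1, relative to the median gene of the same class, in endothelial and in Kupffer cells, with bars at the list medians. Points of the pan-endothelial, sinusoidal and transcription factor lists lie mostly below 0 in endothelial cells (medians -0.75, -0.73 and -0.54), and heme and iron genes mostly above it (0.33).

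Fgf23, the phosphate-regulating hormone gene, had the largest ratio among genes with at least 100 fragments and a fragment in at least 10% of cells of the higher library. It had 2 endothelial fragments in library 1 (1.25 CPM, 1.75% of cells) and 107 in library 2 (47.1 CPM, 42.1% of cells), a log2 ratio of 5.04 (3.47 to 8.42). Kupffer cells had 3.97 and 6.23 CPM (0.80). Of the 107 fragments, 48 from 36 cells fell in 1 tile at the gene's end (chr6:127072001-127073000), where library 1 had 0 endothelial fragments and Kupffer cells had 2 and 3. The ratio was 5.06 without the deepest cell, 5.25 when cells under 50% in peaks were left out, and 5.37 without the weak members. The signal was thus spread over many endothelial cells of library 2 and was near 0 in library 1.

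The next highest were Klk1b21, Gda, Htr7, Pcdha6, Slc7a11, Dach2, Map2, Slc2a1 and Mcub, at 2.33 to 2.90. Gda (guanine deaminase) gave 10.0 and 68.7 CPM (2.86) and was seen in 9.65% and 50.0% of cells, with 56.2 and 82.4 CPM in Kupffer cells. Slc2a1, the glucose transporter GLUT1, gave 16.3 and 76.6 CPM (2.33), with 78.1 and 94.2 CPM in Kupffer cells. For Gda and Slc2a1 the endothelial cells of library 1 stood apart from the other 3 groups. The strongest tile of Slc2a1, at the gene's end, had 9 and 40 endothelial fragments from 8 and 29 cells, whereas in Htr7, Map2, Dach2 and Klk1b21 no tile had more than 7 fragments.

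Among the lowest were Trmt9b (60.2 and 13.7 CPM, -2.0), S100a13, Wnt2, Ehd3, Cyp26b1, which degrades retinoic acid (120 and 31.3 CPM, -1.81), Tpbgl, Hspb9, Tbxa2r, the thromboxane receptor (57.1 and 17.2 CPM, -1.60), and Bik. In Kupffer cells these 9 ranged from -0.60 to 1.73, some on few fragments. The open tile of Wnt2 had 80 endothelial fragments from 43 cells in library 1 and 21 from 16 in library 2.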

How the data were processed

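Per the submitters' processing notes, the build was GRCm38.p5 and the tools were Signac 0.2.4, Seurat, R 3.6.1, Cell Ranger and Cell Ranger ATAC 1.2.0, with no roles stated. The authors deposited counts: a list of unique fragments of both libraries with the read pairs behind each, and a table of barcodes with counts of fragments in peaks and cell calls. Each unique fragment was counted once per gene, using Python 3.11.15, numpy 2.4.6, pandas 2.3.3, scipy 1.17.1 and matplotlib 3.10.9. Gene positions came from RefSeq (GRCm38.p6), with 21887 protein-coding genes, and all 282 list symbols matched. Log2 ratios had 0.5 added to each count and were centred on the median gene. Intervals were 95% exact binomial for ratios and shares and Poisson for levels. Scripts were tested on simulated data. With 1 library a group no p-value was computed. The members and the gene lists were chosen with earlier results of these data known. Named genes were the rule's markers, the 3 highest and 2 lowest of each list, the 10 highest and 10 lowest of each comparison, and list members described by their role. Values of 2 genes are not reported here. Reads before deposit and other cell classes were not analysed here. Alternatives are given in the closing section.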

Additional observations from a re-analysis of the deposited data

How the results depend on the processing

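Directions were mostly stable: over 10 alternatives to the gene counts, 3661 of 3870 gene values and 635 of 688 list medians kept their sign. Part of this was fixed in advance. Scaling by fragments at gene ends cancels in the centring on the median gene and could not change a ratio. Leaving out the deepest endothelial cell of library 2 could not change the library 1 ratios of endothelial over Kupffer cells. No paired analysis was possible because each group had 1 library and the columns carry no replicate numbers. Asking for a marker sum of at least 10 left 90 and 63 endothelial cells, and a ratio of at least 4 times left 95 in library 2. Numbers of genes past the fold moved most. Counting cells with at least 1 fragment in place of fragments gave 708 higher and 1164 lower than Kupffer cells in library 1, 318 and 336 in library 2, 259 and 274 in both, 54 and 15 against stellate cells, and 91 and 42 for library 2 over library 1. Thinning cells to 5000 fragments gave 900 higher in library 1, 450 and 421 in library 2, 308 and 297 in both, 101 and 103 against stellate cells, and 230 and 147 between libraries. With no minimum of fragments the counts were 2862 and 2885, 2557 and 2025, 1125 and 905, 747 and 1083, and 3224 and 1270. Genes higher in library 2 numbered 1232 with pile-ups kept, 250 in cells with at least 50% in peaks, 360 with a sum of at least 10 and a ratio of 4, and 348 without the members under 3 times the even spread, which also gave 1160 genes lower than Kupffer cells in library 2. The cause of these moves was not tested, except that thinning and the minimum change how many genes can be tested. The share of 4-fold tiles that lay at gene ends was 14.4% with at least 40 fragments and 16.0% with gene ends of 2 kb. The large-vessel median against Kupffer cells reversed in library 2 to -0.14 by cells with at least 1 fragment, to -0.25 when thinned and to -0.064 in cells with at least 50% in peaks, and in library 1 to -0.14 when thinned. Thinning also reversed the sinusoidal median (-0.11) in library 2. Gene bodies without flanks reversed Procr (0.075 and 0.40) and, between libraries, Cd79a (0.33). Depth limits single genes: under 50 fragments no call was made.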

Other observations

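Some macrophage genes stood higher in library 2 within the endothelial cells. Of 10 further Kupffer markers, 6 were tested and 1 passed the fold (median 0.43), and of 9 monocyte and dendritic cell genes, 5 were tested, with 1 higher and 1 lower (median -0.28). The called gene of the first list, Csf1r, gave 22.6 CPM in library 1 and 54.2 CPM in library 2 (log2 1.37, 95% interval 0.84 to 1.96), and -0.58 in Kupffer cells. The gene called higher in the second list, Cx3cr1, the fractalkine receptor, gave 6.90 and 21.1 CPM (1.69, 0.77 to 2.83). Of the 5 tested genes of that list, 3 lay below 0. Il6 had 3 fragments in library 1 and 34 in library 2, under the minimum for a call. C1qc gave 4.39 and 6.61 CPM, against 80.6 and 59.2 CPM in Kupffer cells. These genes were picked after their values were seen.

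Barcodes that were not called cells also carried endothelial fragments. The 14 pan-endothelial genes gave 478 and 327 CPM in the uncalled barcodes of library 1 and library 2, beside 1404 and 851 CPM in endothelial cells and 348 and 287 CPM in Kupffer cells. The median fragment length was 95 and 100 bp in endothelial cells and 106 and 100 bp in Kupffer cells.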
